A study of Mus musculus with 21 samples.

Results

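The genes described here are 44 interferon-stimulated genes of the mouse, of 51201 gene IDs in the deposited gene tables. They were taken as a fixed list of gene symbols and fall into 7 groups: 10 Ifit, Oas and Mx genes, 8 guanylate-binding proteins (Gbp), 5 immunity-related GTPases (Irg), 3 Schlafen genes, 4 regulators, 4 nucleic acid sensors and 10 other effectors. All 44 passed the filter on low counts in every fit. The libraries are polyA RNA of spleen T cells from C57BL/6J mice at postnatal day 35, sequenced unstranded in paired reads of 150 bases. There were 6 libraries of CD4+ cells from L-gp130fl/+;CD4Cre+/- mice (4 male, 2 female), against 6 of CD4+ cells from CD4Cre+/- controls (1 male, 5 female). There were 3 libraries of CD8+ cells from L-gp130fl/+;CD4Cre+/- mice (2 male, 1 female), against 6 of CD8+ cells from CD4Cre+/- controls (4 male, 2 female). The genotypes are called L-gp130 and control from here on, and the controls carry the same Cre allele. CD4+ cells were isolated by positive selection on beads and CD8+ cells by negative selection, and RNA was accepted at an integrity number above 7.

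L-gp130 is a form of gp130 that is active without ligand. gp130 is the common signal-passing chain of the receptors for interleukin-6 and related cytokines. Cre driven by the Cd4 promoter acts in the CD4 and in the CD8 lineage, because developing T cells of both pass through a stage that expresses Cd4. Interferons signal through JAK kinases to STAT proteins. Type I interferon assembles a complex that contains Stat2 and Irf9 on interferon-stimulated response elements (ISRE), while interferon gamma acts at gamma-activated sites (GAS). Ifit, Oas and Mx genes are textbook type I targets, whereas Gbp and Irg genes also respond strongly to interferon gamma. gp130 acts mainly through Stat3 and induces the feedback inhibitor Socs3.

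Counts per library reached 17781085 to 21226510 in L-gp130 CD4, against 27855757 to 35869208 in control CD4, and 17217364 to 19476881 in L-gp130 CD8, against 17719183 to 19286396 in control CD8. The CD4 groups therefore did not overlap in depth. Levels are given as CPM, counts scaled to a common library total and normalised within each cell type. Socs3, as a readout of the transgene, ranged from 264 to 432 CPM in L-gp130 CD4, against 116 to 140 CPM in control CD4, and from 444 to 514 CPM in L-gp130 CD8, against 115 to 171 CPM in control CD8. Each library thus lay on the side its genotype label gives. The library labelled control CD4 replicate 5 and female held 121 CPM of the Y-linked Ddx3y and 0.118 CPM of Xist, against its sex label. L-gp130 CD4 replicate 1 and control CD8 replicates 1 to 3 stood apart for the genes of interest and are described with the results they touch. In bulk RNA, fewer cells of a type and less RNA per cell cannot be told apart. The labels number the mice from 1 within each group and reuse the numbers across groups, and do not say whether a CD4 and a CD8 library came from 1 mouse. The p-values measure the spread between these libraries.

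Promoter windows of 250 bases before to 50 bases after the start, from RefSeq on build GRCm38.p6, were matched by symbol to 31 of the 44 members (36 windows). The ISRE core, spelled GAAANNGAAA and searched on both strands, occurred in 22 of these windows (61.1%), against 3.44% of all 32851 windows of the table. It was present in 5 of 8 matched Ifit, Oas and Mx genes, 4 of 4 matched Gbp genes, 3 of 4 Irg genes and 2 of 3 Schlafen genes. The matched Gbp genes were Gbp2, Gbp3, Gbp5 and Gbp7, and no window was matched to Gbp4, Gbp6, Gbp8 or Gbp9. The ISRE core was also present in 1 of 3 regulators, 2 of 2 sensors and 3 of 7 other effectors. The GAS core, TTCNNNGAA, occurred in 7 windows (19.4%), against 8.3% of all windows. A match describes the letters only. The stretches below show how the core sits in families whose RNA behaved differently in the L-gp130 cells. They are written 5′ to 3′ on the strand of the gene, with the ISRE core of either strand in capitals.
Ifit1, chr19:34640775-34640823 (+): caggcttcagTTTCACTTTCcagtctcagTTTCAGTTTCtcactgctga
Ifit3, chr19:34583363-34583426 (+): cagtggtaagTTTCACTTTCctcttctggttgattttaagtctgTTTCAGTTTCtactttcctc
Gbp2, chr3:142620594-142620623 (+): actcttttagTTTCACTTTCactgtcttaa
Gbp3, chr3:142559989-142560024 (+): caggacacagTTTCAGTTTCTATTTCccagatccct
Gbp5, chr3:142496759-142496788 (+): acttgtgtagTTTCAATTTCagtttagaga
Igtp, chr11:58199512-58199541 (+): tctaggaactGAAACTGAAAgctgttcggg
Slfn5, chr11:82951937-82951966 (+): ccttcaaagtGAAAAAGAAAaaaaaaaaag
Slfn8, chr11:83020839-83020868 (-): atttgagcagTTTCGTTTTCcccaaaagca
Isg15, chr4:156200865-156200906 (-): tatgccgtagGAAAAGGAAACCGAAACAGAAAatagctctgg
Rsad2, chr12:26456553-26456582 (-): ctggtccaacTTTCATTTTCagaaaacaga
Bst2, chr8:71537577-71537612 (-): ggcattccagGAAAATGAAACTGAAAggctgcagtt
The Ifit1 cores start 104 and 85 bases before the RefSeq start of its window. The Gbp2 core starts 59 bases and the Slfn5 core 155 bases before the RefSeq starts of theirs. The GENCODE gene starts of Gbp2 and Slfn5, at 142620602 and 82951349, lie upstream of these cores. Ifit3b carries the same stretch as Ifit3, at chr19:34607759-34607822. The cores of Gbp3, Isg15 and Bst2 overlap one another, so that 1 run of capitals holds 2 or 3 of them. The windows of Ifit2, Slfn1, Samd9l, Irf7 and Irf9 held no ISRE core.

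The interferon-stimulated genes did not move as 1 block in the L-gp130 cells. The 3 Schlafen members fell in both cell types. All Ifit members, Oas2 and Oasl1 were lower in CD8 cells. The Irg genes did not pass the test in either cell type, and Gbp3 rose in CD8 cells. In CD4 cells 9 members fell and 0 rose (edgeR quasi-likelihood test, adjusted p under 0.05). Over all 15016 genes tested there, 7.75% fell and 11.1% rose. The 0 for higher members compares with 2 at an unadjusted p under 0.05 and 1 (Gbp3) by DESeq2. The median log2 fold change of the members in CD4 cells was -0.18, against -0.01 over all genes. In CD8 cells 18 members fell and 1 rose, where 10.5% of 14254 genes fell and 10.5% rose. The median of the members in CD8 cells was -0.38, against -0.01 over all genes, and 39 of 44 had a negative fold change.

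**Figure D1:**
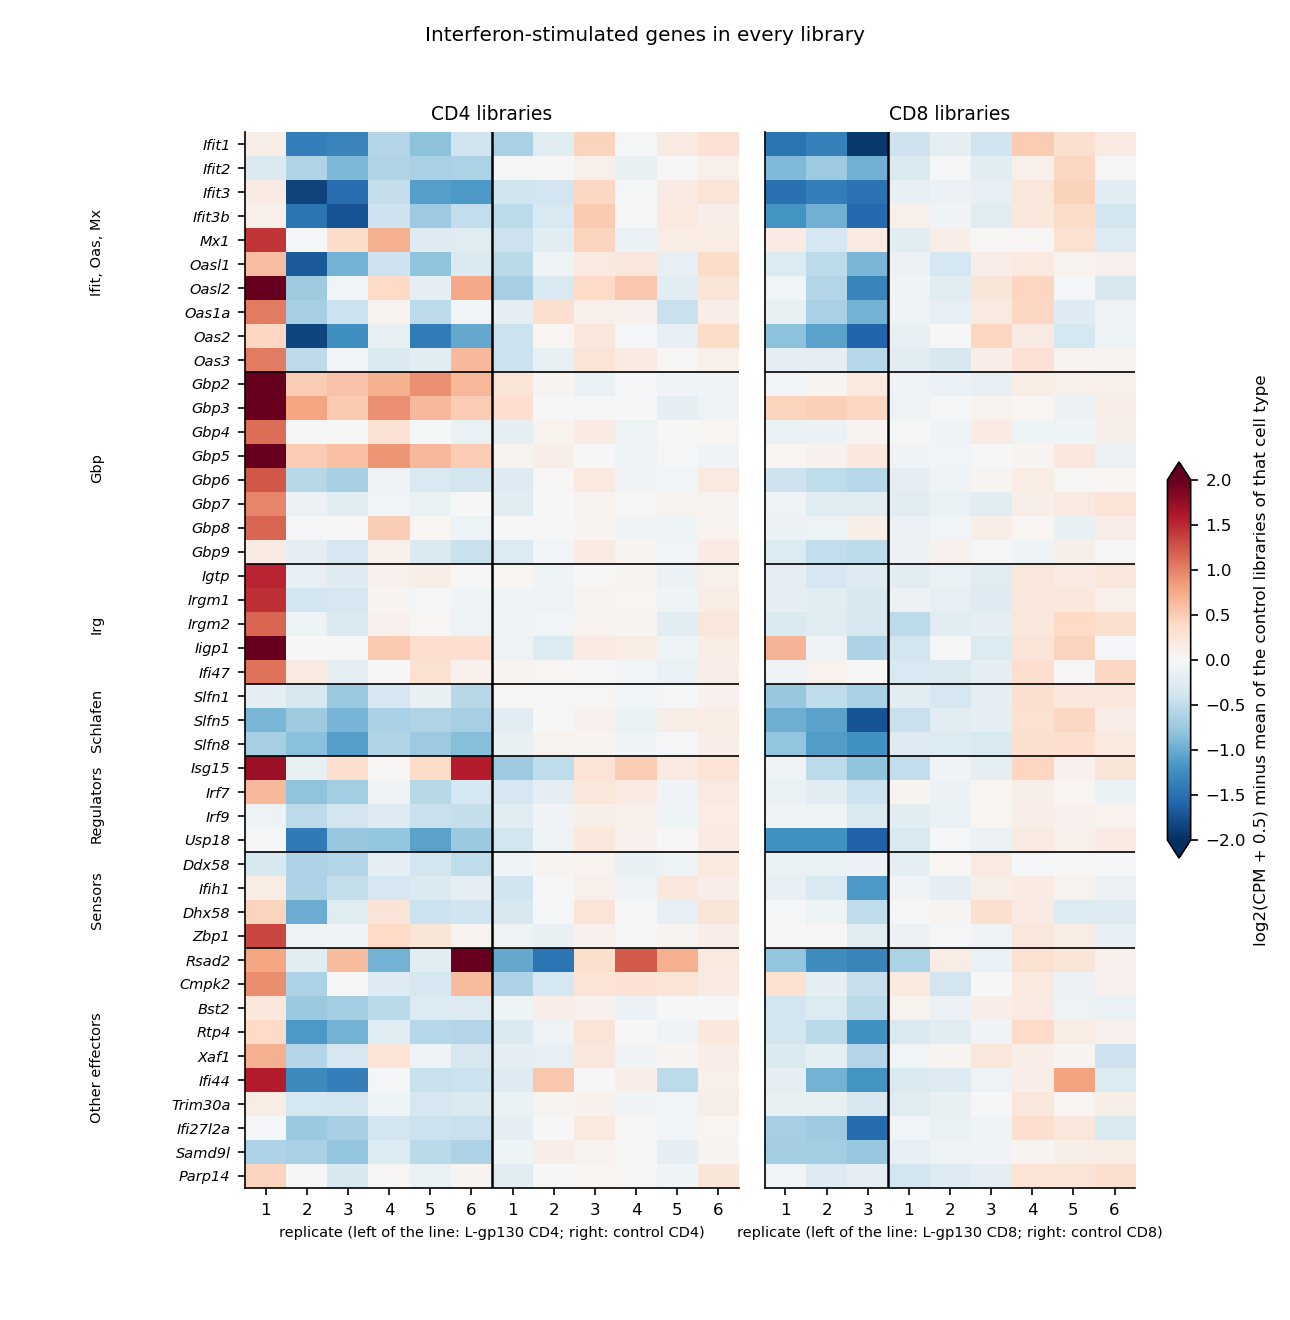
Each row is a member and each column a library (L-gp130 left of the line, control right of it), coloured by log2(CPM + 0.5) minus the mean of the controls of that cell type. L-gp130 CD4 replicate 1 is red over the Gbp and Irg rows, with family medians of 1.21 and 1.46, while the Schlafen rows are blue in every L-gp130 library.

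Of the 9 members that fell in CD4 cells, 7 also fell in CD8 cells: Ifi27l2a, Ifit2, Samd9l, Slfn1, Slfn5, Slfn8 and Usp18. These are 77.8% of the CD4 list and 38.9% of the CD8 list. The other 2 of the CD4 list were Irf9 and Ddx58. Across the 44 members the fold changes in CD4 and CD8 cells had a Pearson correlation of 0.63 and a Spearman correlation of 0.70, as a description over genes. Every L-gp130 library lay below every control for 6 members in CD4 cells, where 5.85% of all genes had that order. Every L-gp130 library lay above every control for 3 members in CD4 cells (Gbp2, Gbp3 and Gbp5), where 7.68% of all genes did. In CD8 cells the counts were 17 below and 1 above (Gbp3), where 12.4% and 11.7% of all genes had these orders.

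Without L-gp130 CD4 replicate 1, 14 members fell in CD4 cells and 3 rose (Gbp2, Gbp3 and Gbp5), where 10.7% of genes fell and 12.9% rose. All 9 of the members that fell with it were kept, and Ifit3, Oas2, Rtp4, Bst2 and Trim30a joined them. Of these 14, 11 also fell in CD8 cells (78.6%). Without L-gp130 CD4 replicate 6, 5 members fell in CD4 cells and 0 rose, where 3.79% of genes fell and 5.33% rose.

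**Figure D2:**
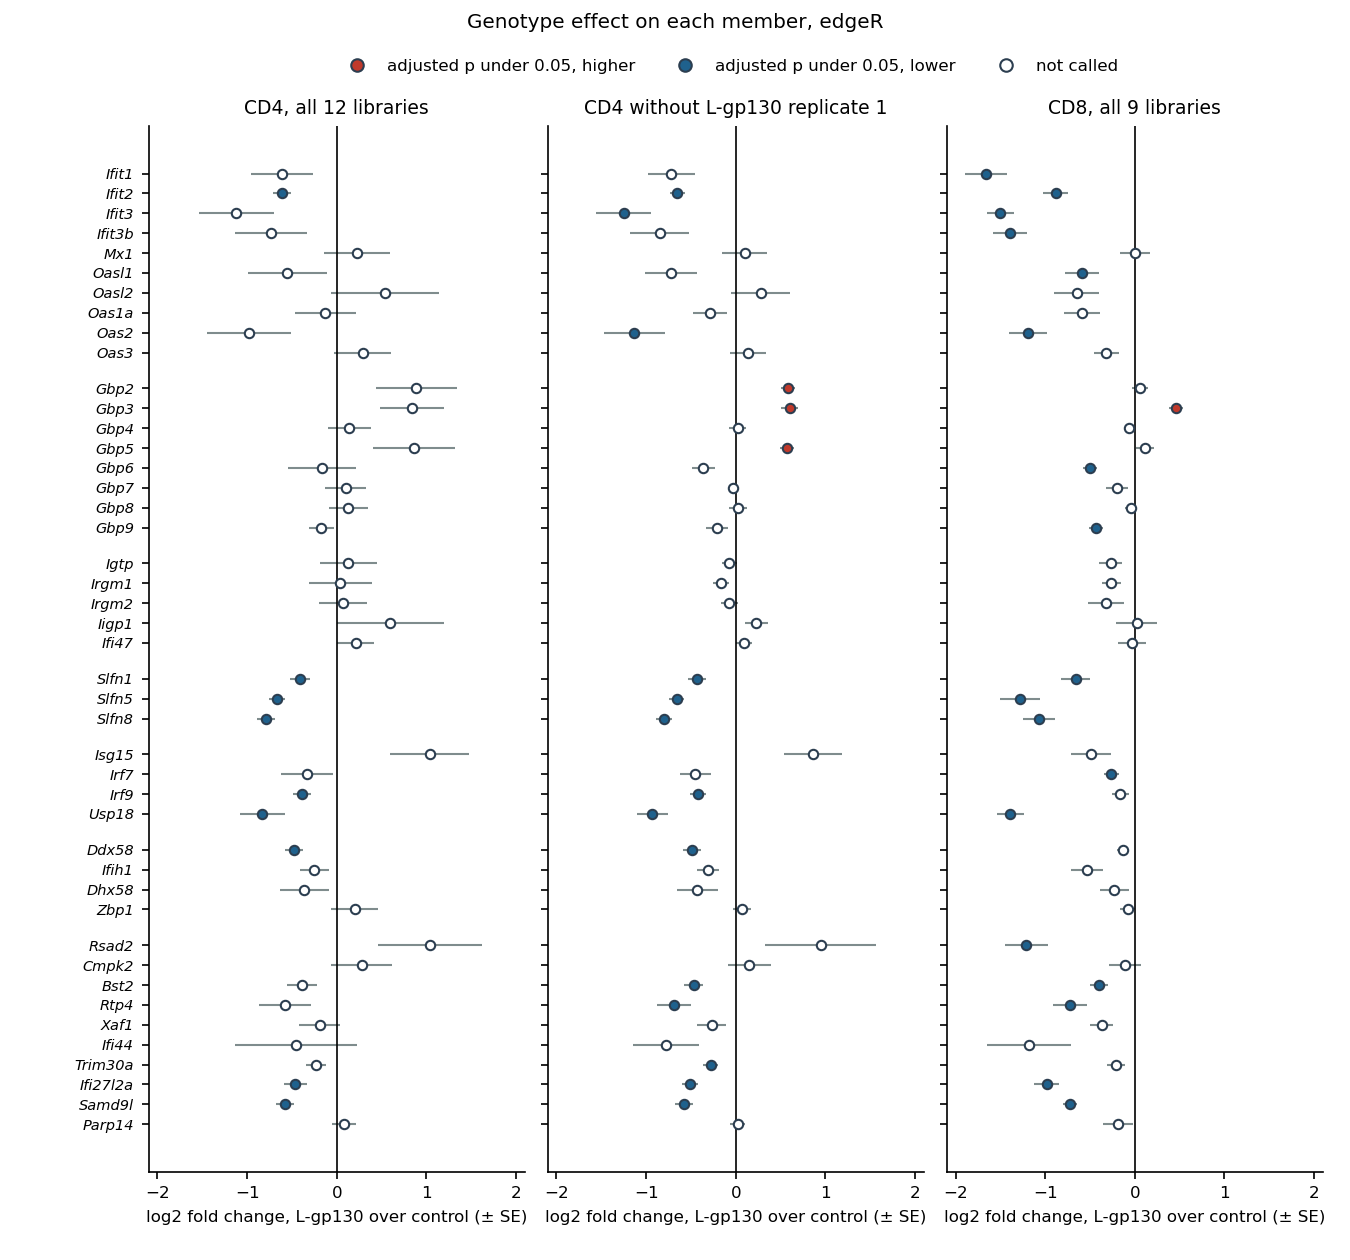
Log2 fold change with standard error (SE) of each member, L-gp130 over control, in the 12 CD4 libraries (left), in CD4 without L-gp130 replicate 1 (middle) and in the 9 CD8 libraries (right), with filled points for adjusted p under 0.05. The 3 Schlafen genes are filled on the low side in each panel, Gbp2, Gbp3 and Gbp5 are filled on the high side in the middle panel, and Gbp3 also in the right panel.

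The Ifit, Oas and Mx genes encode proteins of the antiviral response. In CD8 cells 6 of 10 fell (Ifit1, Ifit2, Ifit3, Ifit3b, Oasl1 and Oas2) and 0 rose, with a family median of -0.77. Ifit3 had 13.9, 15.1 and 14.02 CPM in L-gp130 CD8, against 34.2, 36.4 and 55.1 CPM as lowest, median and highest in control CD8. The L-gp130 libraries lay close together and below all controls, with a log2 fold change of -1.50 ± 0.15 (SE) at an edgeR adjusted p of 0.000188. Ifit1, which binds viral RNA caps, had 11.3, 12.1 and 8.01 CPM in L-gp130 CD8, against 23.8, 31.8 and 45.2 CPM in control CD8. Its groups did not overlap, and its log2 fold change of -1.66 ± 0.23 was the most negative of the 44 members in CD8 cells (edgeR adjusted p = 0.00127). Ifit3b had a log2 fold change of -1.39 ± 0.19 in CD8 cells, but 55.3% of its 31-base words occur in other genes, chiefly Ifit3, and 61.8% of those of Ifit3 occur in Ifit3b. How reads were divided between these neighbours on chromosome 19 is therefore uncertain.

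In CD4 cells Ifit2 was the only member of this family that fell. It had 38.9, 47.7 and 59.7 CPM as lowest, median and highest in L-gp130 CD4, against 65.8, 73.0 and 79.0 CPM in control CD4. The groups did not overlap, and its log2 fold change was -0.61 ± 0.10 in CD4 cells (edgeR adjusted p = 0.00178). In CD8 cells Ifit2 had 27.4, 30.8 and 25.9 CPM in L-gp130 libraries, against 41.8, 51.0 and 67.9 CPM in controls, a log2 fold change of -0.88 ± 0.14. Ifit1, Ifit3 and Oas2 overlapped between the CD4 groups. For Ifit1, L-gp130 replicates 1, 4 and 6 at 45.8, 28.0 and 31.9 CPM lay above the lowest control at 26.8 CPM. For Ifit3, replicate 1 was the L-gp130 library that lay among the controls. Ifit3 had 9.84, 16.5 and 41.3 CPM in L-gp130 CD4, against 27.7, 38.5 and 49.1 CPM in control CD4, with a log2 fold change of -1.12 ± 0.42 at an edgeR adjusted p of 0.0861. The highest of these L-gp130 values was that of replicate 1, without which Ifit3 fell in CD4 cells with -1.25 ± 0.31 (edgeR adjusted p = 0.0141).

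Oas2 makes the oligoadenylates that switch on RNase L. It had 9.08, 15.2 and 45.0 CPM in L-gp130 CD4, against 24.8, 33.6 and 43.3 CPM in control CD4, with an edgeR adjusted p of 0.165, and of 0.0384 without L-gp130 replicate 1. That library lay above every control for Oas2, and replicate 4 at 30.1 CPM lay among them. In CD8 cells Oas2 had 13.1, 10.9 and 7.50 CPM in L-gp130 libraries, against 18.4, 22.6 and 31.8 CPM in controls, a log2 fold change of -1.19 ± 0.21. Oasl1 fell in CD8 cells by 0.59 ± 0.19 on the log2 scale (edgeR adjusted p = 0.0456). Oas1a, Oasl2 and Oas3 were not called in either cell type, with -0.59, -0.65 and -0.32 in CD8 cells. For Oas1a, 68.8% of its words are shared, nearly all with Oas1g. Mx1, a gene of a GTPase family, had a log2 fold change of 0.23 ± 0.37 in CD4 cells and 0.00 ± 0.17 in CD8 cells.

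The Schlafen genes encode T cell-expressed proteins tied to growth control and to RNA binding, and all 3 members fell in both cell types. Slfn5 had 126, 149 and 159 CPM as lowest, median and highest in L-gp130 CD4, against 206, 248 and 267 CPM in control CD4. The groups were far apart, with a log2 fold change of -0.67 ± 0.09 at an edgeR adjusted p of 0.000296. In CD8 cells Slfn5 had 47.1, 43.8 and 27.6 CPM in L-gp130 libraries, against 67.7, 91.6 and 123.9 CPM in controls, a log2 fold change of -1.28 ± 0.22 at an edgeR adjusted p of 0.00364. Slfn8 had 60.8, 76.5 and 86.6 CPM in L-gp130 CD4, against 118, 133 and 145 CPM in control CD4, and 57.8, 46.1 and 43.2 CPM in L-gp130 CD8, against 80.9, 99.9 and 126 CPM in control CD8. Neither comparison of Slfn8 overlapped, with log2 fold changes of -0.79 ± 0.10 in CD4 cells and -1.07 ± 0.18 in CD8 cells. Slfn1, which had the highest TPM of the 3 members, had log2 fold changes of -0.41 ± 0.11 in CD4 cells (edgeR adjusted p = 0.0186) and -0.66 ± 0.16 in CD8 cells (edgeR adjusted p = 0.0157).

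Slfn1 was not called in CD4 cells without L-gp130 replicate 6 (edgeR adjusted p = 0.0953) or without control replicate 1 (0.0738). In CD8 cells Slfn1 was not called without L-gp130 replicate 1 (edgeR adjusted p = 0.0825) or without replicate 3 (0.0775). Its groups did not overlap in either cell type. L-gp130 CD4 replicate 1, which was high for most members, had a Schlafen median of -0.66 below the controls, within the -0.93 to -0.60 of the other L-gp130 CD4 libraries. Slfn8 shares 27.3% of its words with other genes, chiefly Slfn9, and Slfn5 shares 13.4%. Slfn5 also overlaps the antisense gene Slfn5os, whose reads cannot be told apart in unstranded libraries.

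The lower RNA of these 3 members did not extend to every Schlafen gene. Slfn2, Slfn3, Slfn4 and Slfn9, which are not members, were not called by edgeR in either cell type. Slfn2 had 346 to 467 CPM in L-gp130 CD4, against 360.2 to 455 CPM in control CD4, a log2 fold change of -0.02 ± 0.10. In CD8 cells Slfn2 had 241 to 270.4 CPM in L-gp130 libraries, against 272 to 375 CPM in controls, without overlap. Its log2 fold change there was -0.34 ± 0.12 at an edgeR adjusted p of 0.0637, and DESeq2 called it lower. Per length Slfn2 averaged 328 TPM in L-gp130 CD4, against 165 TPM for Slfn1 in the same libraries.

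**Figure D3:**
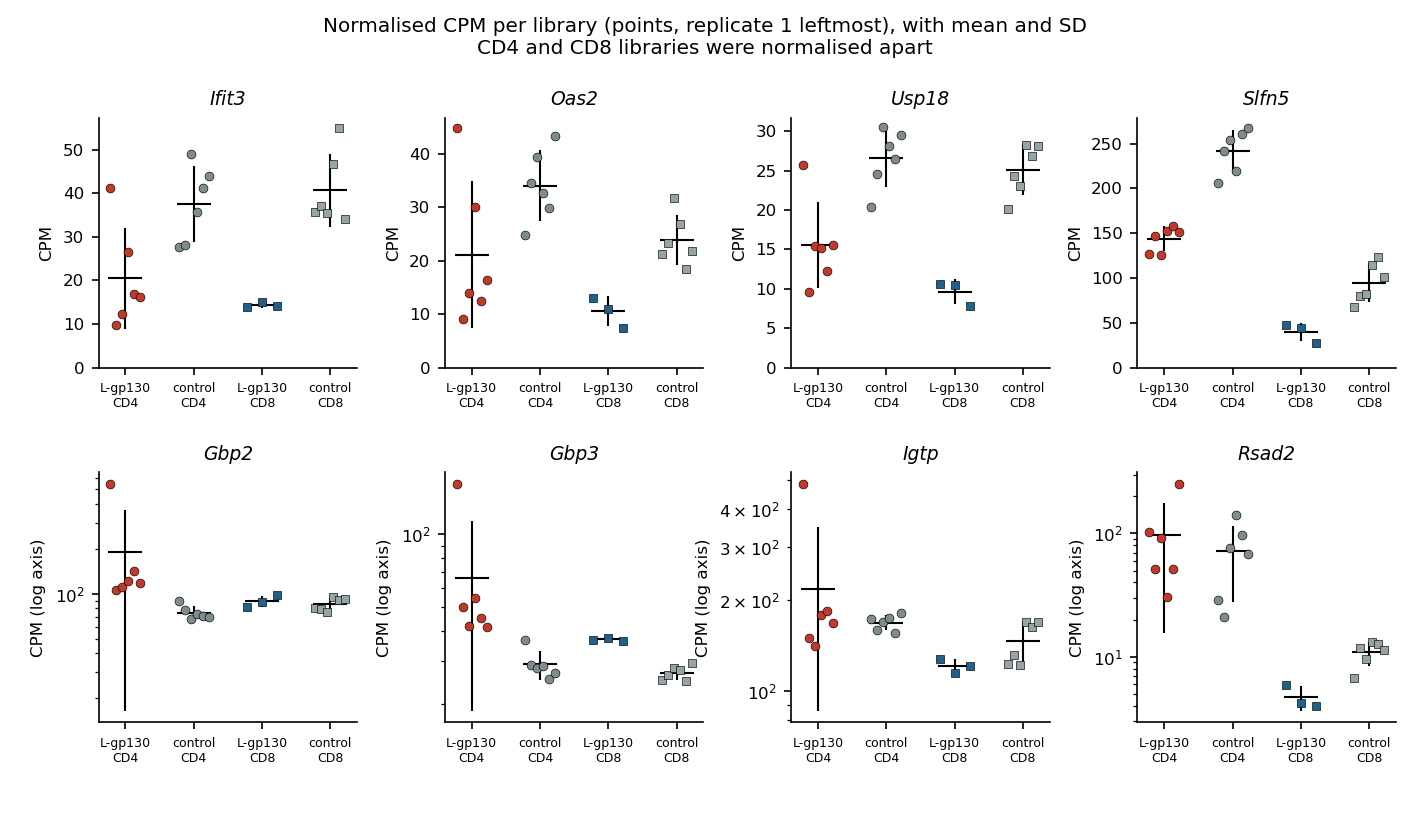
Normalised CPM of 8 members in every library of the 4 groups, with mean and SD (upper row linear from 0, lower row on log axes). Slfn5, Usp18 and Ifit3 lie below every control in the 3 L-gp130 CD8 libraries, while Gbp2 at 545 CPM, Gbp3 at 162 CPM and Igtp at 484 CPM mark L-gp130 CD4 replicate 1.

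The guanylate-binding proteins coat pathogen-containing vacuoles and bacteria. With all CD4 libraries, 0 of 8 were called in either direction by edgeR, against 1 higher at an unadjusted p under 0.05 and 1 higher by DESeq2, and the family median was 0.13. Gbp2 had 106, 120.1 and 545 CPM as lowest, median and highest in L-gp130 CD4, against 67.6, 72.1 and 89.5 CPM in control CD4. The groups did not overlap, but the 545 CPM of replicate 1 stood far above the 106 to 142 CPM of the other 5 L-gp130 libraries. The log2 fold change of Gbp2 was 0.89 ± 0.45 with that library (edgeR adjusted p = 0.195) and 0.58 ± 0.08 without it (edgeR adjusted p = 0.000205). Gbp5, which also promotes inflammasome assembly, had 46.4, 50.6 and 226 CPM in L-gp130 CD4, against 30.1, 32.2 and 35.5 CPM in control CD4, and a log2 fold change of 0.57 ± 0.08 without replicate 1 (edgeR adjusted p = 0.00023). In CD8 cells Gbp2 had 81.9, 88.5 and 97.6 CPM in L-gp130 libraries, against 75.6, 85.8 and 94.7 CPM in controls, so the groups overlapped.

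Gbp3 rose in CD8 cells, where it had 36.8, 37.4 and 36.4 CPM in L-gp130 libraries, against 24.8, 26.9 and 29.5 CPM in controls. The log2 fold change was 0.46 ± 0.08 (edgeR adjusted p = 0.00291). In CD4 cells Gbp3 had 41.5, 47.8 and 162 CPM in L-gp130 libraries, against 25.4, 28.4 and 36.6 CPM in controls. Its log2 fold change there was 0.84 ± 0.36 with replicate 1 (edgeR adjusted p = 0.123) and 0.60 ± 0.10 without it (edgeR adjusted p = 0.000954). Gbp6 and Gbp9 fell in CD8 cells, by 0.50 ± 0.08 and 0.43 ± 0.08 on the log2 scale (edgeR adjusted p = 0.00256 and 0.00481). Gbp6 had 90.6, 84.4 and 81.0 CPM in L-gp130 CD8, against 106, 123 and 134 CPM in control CD8, with no overlap. Of the words of Gbp6, 74.3% occur in other genes, chiefly the predicted gene Gm43302, and of those of Gbp9, 18.3% do.

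The 8 Gbp genes lie in 2 clusters, and the 3 that rose in either setting share 1 of them. Gbp2, Gbp3, Gbp5 and Gbp7 lie on chromosome 3, between 142493978 and 142638008 on GRCm38, and had log2 fold changes of 0.06, 0.46, 0.11 and -0.20 in CD8 cells. Gbp4, Gbp6, Gbp8 and Gbp9 lie on chromosome 5 and had -0.07, -0.50, -0.04 and -0.43 in CD8 cells. In CD4 cells without L-gp130 replicate 1 the chromosome 3 genes had 0.58, 0.60, 0.57 and -0.03, and the chromosome 5 genes 0.02, -0.36, 0.02 and -0.21. The division by cluster was noted after the values were seen and no test was made of it.

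The Irg genes encode GTPases that act on pathogen vacuoles, with Irgm1, Irgm2 and Igtp as regulators of effectors such as Iigp1. In CD4 cells 0 of 5 were called by edgeR, 0 had an unadjusted p under 0.05 and 0 were called by DESeq2. In CD8 cells 0 of 5 were called by edgeR, 1 was lower at an unadjusted p under 0.05 and 0 were called by DESeq2. Igtp had 141, 173 and 484 CPM as lowest, median and highest in L-gp130 CD4, against 156, 171 and 181 CPM in control CD4, and the 484 CPM belonged to replicate 1. The 5 log2 fold changes in CD4 cells ran from 0.04 (Irgm1) to 0.60 (Iigp1), and without that library from -0.16 (Irgm1) to 0.23 (Iigp1). In CD8 cells they ran from -0.32 (Irgm2) to 0.02 (Iigp1). Igtp and Irgm2 share 15.9% of the words of Igtp.

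The regulators differed among themselves. Usp18, the protease that removes ISG15 and damps the type I receptor, fell in both cell types. It had 9.59, 15.3 and 25.7 CPM as lowest, median and highest in L-gp130 CD4, against 20.4, 27.3 and 30.6 CPM in control CD4, a log2 fold change of -0.83 ± 0.25 at an edgeR adjusted p of 0.0343. The overlap came from replicate 1 at 25.7 CPM. In CD8 cells Usp18 had 10.6, 10.5 and 7.78 CPM in L-gp130 libraries, against 20.1, 25.6 and 28.3 CPM in controls, a log2 fold change of -1.39 ± 0.15 at an edgeR adjusted p of 0.000284. The CD4 call of Usp18 was lost without L-gp130 replicate 2 (edgeR adjusted p = 0.138), replicate 3 (0.0515) or replicate 6 (0.107). It was also lost, at an edgeR adjusted p of 0.0505 to 0.0544, without control replicate 3, 4, 5 or 6.

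Irf9, the DNA-binding subunit of the type I complex, fell in CD4 cells, with 122, 133 and 164 CPM in L-gp130 libraries, against 152, 179 and 196 CPM in controls. Its log2 fold change was -0.39 ± 0.10 (edgeR adjusted p = 0.0218), and the call was lost without L-gp130 replicate 2 (0.101) or replicate 6 (0.114). In CD8 cells Irf9 had -0.16 ± 0.09 and was not called. Irf7, the factor that amplifies type I interferon production, had 100.6, 95.5 and 82.0 CPM in L-gp130 CD8, against 101.2, 113.5 and 120.3 CPM in control CD8. Its groups touched without overlapping, with a log2 fold change of -0.26 ± 0.08 at an edgeR adjusted p of 0.0341. That call of Irf7 was lost without any of the 3 L-gp130 CD8 libraries (edgeR adjusted p = 0.066, 0.1001 and 0.191) and without control replicate 1, 3, 4 or 5 (0.0512 to 0.0588). In CD4 cells Irf7 had 69.0, 87.8 and 188 CPM in L-gp130 libraries, against 95.6, 124.9 and 141.6 CPM in controls, and was not called.

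Isg15, a ubiquitin-like modifier, had 26.3, 37.2 and 97.9 CPM as lowest, median and highest in L-gp130 CD4, against 17.4, 34.2 and 41.7 CPM in control CD4. Replicates 1 and 6 at 97.9 and 87.9 CPM were the high ones. These were also the L-gp130 CD4 libraries with the highest sums of erythroid markers (Hbb-bs, Hba-a1 and Alas2), at 11068 and 22824 CPM, against 4239 to 10326 CPM in the other 4. Replicate 3 held the 10326 CPM, with 36.8 CPM of Isg15. The libraries did not have the same order by Isg15 as by these markers. The part of erythroid RNA in the values of Isg15 was not tested. The log2 fold change of Isg15 from the fit with sex as a term was 1.04 ± 0.44 (edgeR adjusted p = 0.127). Without L-gp130 replicate 2 Isg15 passed, with an edgeR adjusted p of 0.0316. In CD8 cells Isg15 had 19.1, 13.9 and 11.4 CPM in L-gp130 libraries, against 14.1, 20.4 and 27.5 CPM in controls, with a log2 fold change of -0.49 ± 0.22. Its edgeR adjusted p was 0.139, and 0.0442 without control replicate 1.

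Among the sensors, Ddx58 (RIG-I, which detects short viral RNA) fell in CD4 cells and the others were not called. Ddx58 had 93.3, 106.0 and 126 CPM in L-gp130 CD4, against 130.3, 143 and 165 CPM in control CD4, without overlap and with a log2 fold change of -0.48 ± 0.10 at an edgeR adjusted p of 0.00551. In CD8 cells Ddx58 had 109, 108 and 110 CPM in L-gp130 libraries, against 105, 118 and 134.5 CPM in controls. In CD8 cells 0 of 4 sensors were called by edgeR, against 1 at an unadjusted p under 0.05 and 1 by DESeq2. Over all genes, 10.5% fell and 10.5% rose there, and 7.75% fell in CD4 cells. Ifih1 (MDA5, the sensor of long double-stranded RNA) had -0.25 ± 0.16 in CD4 cells and -0.53 ± 0.18 in CD8 cells. Dhx58 had -0.36 and -0.23, and the Z-form nucleic acid sensor Zbp1 had 0.20 and -0.08, in CD4 and CD8 cells. Dhx58 shares reads with an overlapping antisense gene, Dhx58os, that unstranded libraries do not separate.

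Of the 10 other effectors 2 fell in CD4 cells (Samd9l and Ifi27l2a), and 5 fell in CD8 cells (Rsad2, Rtp4, Bst2, Samd9l and Ifi27l2a). Over all genes, 7.75% fell in CD4 cells and 10.5% in CD8 cells. Samd9l, a restraint on growth and translation, had 133, 149 and 188 CPM as lowest, median and highest in L-gp130 CD4, against 201, 234 and 251 CPM in control CD4. In CD8 cells Samd9l had 195, 193 and 184 CPM in L-gp130 libraries, against 279, 312 and 347 CPM in controls. Neither comparison overlapped, with log2 fold changes of -0.58 ± 0.10 in CD4 cells and -0.72 ± 0.08 in CD8 cells (edgeR adjusted p = 0.00167 and 0.000437). Ifi27l2a, a small mitochondrial protein, had 97.8, 120.5 and 159 CPM in L-gp130 CD4, against 142, 165 and 187 CPM in control CD4, and 68.4, 65.6 and 37.0 CPM in L-gp130 CD8, against 88.1, 103.7 and 137 CPM in control CD8. Its log2 fold changes were -0.46 ± 0.13 in CD4 cells (edgeR adjusted p = 0.0261) and -0.98 ± 0.14 in CD8 cells (edgeR adjusted p = 0.00142). The CD4 call of Ifi27l2a was lost without L-gp130 replicate 2 (edgeR adjusted p = 0.125) or replicate 6 (0.088).

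Rsad2 (viperin) differed widely between CD4 libraries of the same group. It had 30.6, 71.6 and 252.5 CPM as lowest, median and highest in L-gp130 CD4, against 21.1, 71.7 and 140 CPM in control CD4, and the medians were alike. Within each CD4 group the libraries had the same order by Rsad2 as by the summed erythroid markers. In L-gp130 CD4, replicate 6 with the highest Rsad2 had 22824 CPM of these markers and replicate 4 with the lowest had 4239 CPM. In control CD4, replicate 4 with the highest Rsad2 had 15698 CPM of them and replicate 2 with the lowest had 2818 CPM. The part of erythroid RNA in the Rsad2 values was not tested. The log2 fold change of Rsad2 in CD4 cells, from a fit with sex as a term, was 1.04 ± 0.58 (edgeR adjusted p = 0.241). In CD8 cells Rsad2 had 5.91, 4.20 and 3.95 CPM in L-gp130 libraries, against 6.66, 11.5 and 13.1 CPM in controls, without overlap and with a log2 fold change of -1.21 ± 0.24 at an edgeR adjusted p of 0.00536. Cmpk2, the neighbour of Rsad2 on chromosome 12, had 0.28 ± 0.34 in CD4 cells and -0.11 ± 0.18 in CD8 cells. Bst2 (tetherin, which holds budding virus at the membrane) fell in CD8 cells by 0.40 ± 0.10 on the log2 scale (edgeR adjusted p = 0.0143). That call of Bst2 was lost without L-gp130 CD8 replicate 1 (edgeR adjusted p = 0.0661) or replicate 3 (0.0979). Rtp4 fell in CD8 cells by 0.72 ± 0.19 (edgeR adjusted p = 0.0245). Xaf1, Ifi44, Trim30a and Parp14 were not called in either cell type with all libraries, and Ifi44 had the lowest level of all members.

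The families can be set side by side from these values. Over all genes, 10.5% fell and 10.5% rose in CD8 cells. There 6 of 10 Ifit, Oas and Mx genes fell, and 2 of 8 Gbp genes fell and 1 rose. Of the Irg genes 0 of 5 were called, which is near these shares, and 3 of 3 Schlafen genes fell. In the order given, the family medians of the log2 fold change in CD8 cells were -0.77, -0.05, -0.26 and -1.07. In CD4 cells, where 7.75% of all genes fell, the counts of lower genes were 1 of 10, 0 of 8, 0 of 5 and 3 of 3. The medians were -0.58, 0.13, 0.13 and -0.67. Without L-gp130 CD4 replicate 1, 10.7% of all genes fell and 12.9% rose in CD4 cells. In that fit 3 of 10 Ifit, Oas and Mx genes fell and 3 of 8 Gbp genes rose. Again 0 of 5 Irg genes were called and 3 of 3 Schlafen genes fell. No test compared the families with each other.

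L-gp130 CD4 replicate 1 was the highest of its group for 38 of 44 members. Its family medians, as log2 CPM above the control mean, were 1.46 for Irg, 1.21 for Gbp and 0.52 for Ifit, Oas and Mx. In the other 5 L-gp130 CD4 libraries these medians ran from -0.25 to 0.13, from -0.04 to 0.39 and from -1.04 to -0.34. The same library had 99.1 CPM of Ifng, the gene of interferon gamma, against 4.49 to 8.05 CPM in the other L-gp130 CD4 libraries and 1.07 to 4.62 CPM in control CD4. Summed markers of macrophages and monocytes reached 2029 CPM in it, against 491 to 887 CPM in the other L-gp130 CD4 libraries and 552 to 1278 CPM in control CD4. Summed neutrophil markers reached 245 CPM in it, against 27.9 to 124 CPM in the other L-gp130 CD4 libraries and 17.99 to 56.7 CPM in control CD4. Summed markers of conventional dendritic cells reached 197 CPM in it, against 76.3 to 134 CPM in the other L-gp130 CD4 libraries and 104 to 150.2 CPM in control CD4. It was the lowest for plasmacytoid dendritic cell markers, with 56.4 CPM, against 86.3 to 104 CPM and 109.9 to 145 CPM. It was also the lowest for T cell markers, with 1552 CPM, against 1881 to 2160 CPM in the other L-gp130 CD4 libraries and 1695 to 2024 CPM in control CD4. Whether these cells or this cytokine account for the high Gbp and Irg values of this library was not tested.

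**Figure D4:**
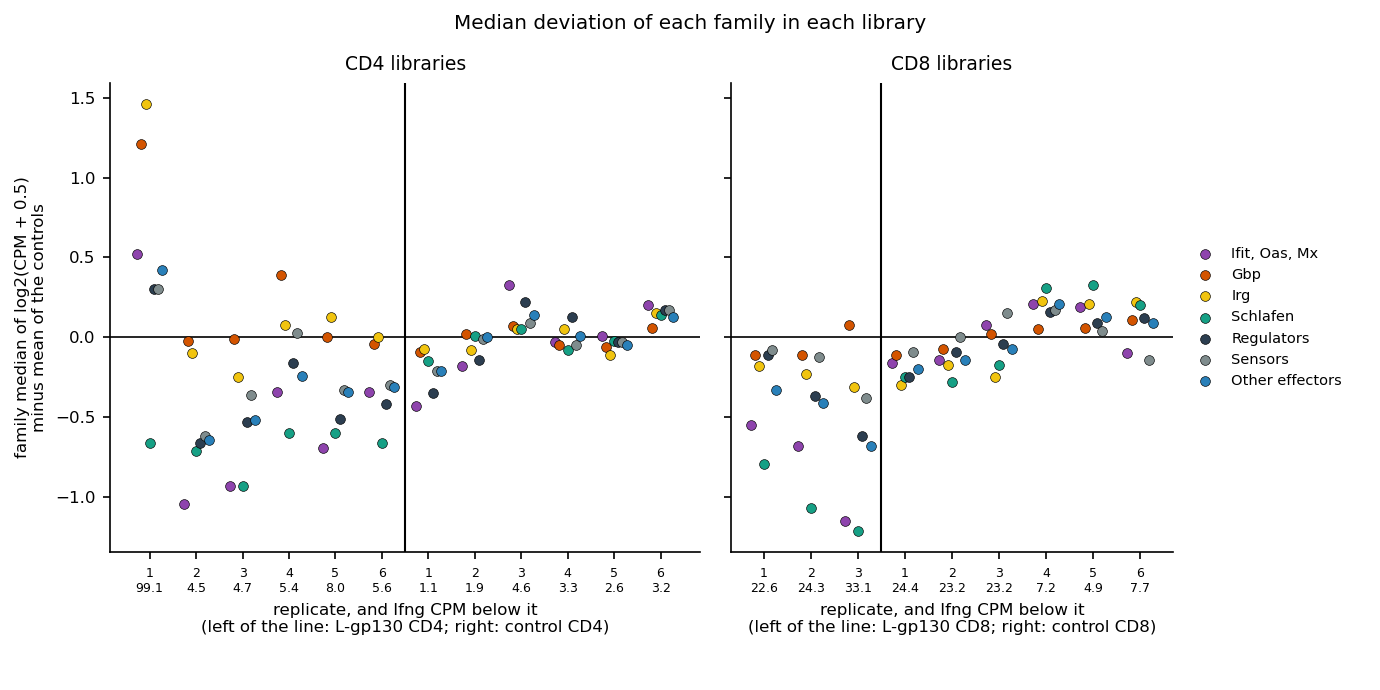
Median of log2(CPM + 0.5) minus the control mean for each family (colours) in each library, with the Ifng CPM under its replicate number and L-gp130 left of the line. Irg and Gbp reach 1.46 and 1.21 in L-gp130 CD4 replicate 1, and control CD8 replicates 1 to 3 lie below replicates 4 to 6 for Schlafen (-0.28 to -0.17, against 0.20 to 0.33).

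The control CD8 libraries also divided. Replicates 1 to 3 had 23.2 to 24.4 CPM of Ifng, against 4.95 to 7.71 CPM in replicates 4 to 6, while the L-gp130 CD8 libraries had 22.6, 24.3 and 33.1 CPM. The Schlafen medians were -0.28 to -0.17 in control replicates 1 to 3 and 0.20 to 0.33 in replicates 4 to 6, against -0.79, -1.07 and -1.21 in L-gp130 CD8. Irg medians were -0.30 to -0.17 in control replicates 1 to 3 and 0.21 to 0.23 in replicates 4 to 6. Against control replicates 4 to 6 alone, 29 members fell and 1 rose, including Igtp, Irgm1 and Irgm2 among the lower ones, where 13.5% of genes fell and 13.3% rose. Against control replicates 1 to 3 alone, 15 members fell and 2 rose (Gbp3 and Ifi47), where 8.19% of genes fell and 10% rose. All 3 Schlafen genes fell against either set, with family medians of -1.32 and -0.75. The labels give no batch for this division, and its cause was not tested.

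A fit over 21 libraries tested whether the effect of genotype differed between CD4 and CD8 cells. By edgeR 0 of 44 members were called, where 3.46% of 15758 genes were, against 5 at an unadjusted p under 0.05 and 0 by DESeq2. The term, the CD4 effect minus the CD8 effect, was positive for 41 of 44 members, with a median of 0.33, against 0.04 over all genes. It was largest for Rsad2 (1.92 ± 0.83) and Isg15 (1.30 ± 0.54), with edgeR adjusted p of 0.237 and 0.212. Without L-gp130 CD4 replicate 1 the median of the members was 0.12, and Gbp2 and Gbp5 were called (edgeR adjusted p = 0.00987 and 0.0294), where 6.25% of genes were. A member called in 1 cell type alone, such as Ifit1, Irf9 or Ddx58, was thus not shown to differ between them.

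In the controls, 12 members were higher in CD4 than in CD8 cells and 1 was lower, where 24.3% of genes were higher and 27.2% lower. CD4 and CD8 cells were isolated by different bead selections, so cell type and isolation cannot be told apart here. Markers of other cells differed between these controls, although these CPM were normalised separately in each cell type. Erythroid markers summed to 2818 to 15698 CPM in control CD4 and 24 to 397 CPM in control CD8, B cell markers to 203 to 776 CPM and 34.4 to 87.6 CPM, and macrophage and monocyte markers to 552 to 1278 CPM and 360.1 to 755 CPM. Their part in the differences below was not tested. Slfn5 was higher in control CD4 cells, with a log2 fold change of 1.31 ± 0.15 over control CD8 cells (edgeR adjusted p = 7.1e-07), and so were Slfn1 (0.33 ± 0.11) and Slfn8 (0.30 ± 0.12). Rsad2, Iigp1 and Ifi44 were the furthest apart, at 2.22 ± 0.55, 1.92 ± 0.48 and 1.85 ± 0.52. Ifih1 (0.96), Irgm2 (0.72), Ifi27l2a (0.58), Ifit2 (0.50), Parp14 (0.42) and Irf9 (0.38) were also higher in control CD4 cells, while Samd9l was lower (-0.52 ± 0.08). Of the Gbp genes, 0 of 8 were called by edgeR, with 0 at an unadjusted p under 0.05 and 0 by DESeq2. With L-gp130 CD4 replicate 1 left out of the common fit, 14 members were higher in control CD4 and 7 lower, where 25.6% and 28.8% of genes were. Gbp2 and Gbp8 were then among the lower ones.

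Levels were compared between genes as TPM, reads scaled for transcript length and library total. Ifi27l2a was the most abundant member in each group, with a mean of 688 TPM in L-gp130 CD4, against 996 TPM in control CD4, and 359 TPM in L-gp130 CD8, against 673 TPM in control CD8. Ifi47 followed in 3 of the 4 groups, with 234 TPM in L-gp130 CD4, 238 TPM in L-gp130 CD8 and 239 TPM in control CD8, whereas Slfn1 with 227 TPM was next in control CD4. Ifi44 was lowest, with 2.54 TPM in L-gp130 CD4, against 2.74 TPM in control CD4, and 0.455 TPM in L-gp130 CD8, against 0.945 TPM in control CD8. The median member had 38.0 TPM in L-gp130 CD4, against 40.9 TPM in control CD4, and 20.6 TPM in L-gp130 CD8, against 29.3 TPM in control CD8.

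Upstream of these genes, RNA of the type I and type III interferon genes examined was at or near 0, whereas Ifng was detected in every library. Other interferon genes were not examined. Of 8 interferon genes, Ifng was the only one that passed the filter. Ifna1, Ifna2, Ifna4, Ifna5, Ifnb1 and Ifnl3 had a count of 0 in every library, which allows up to 0.0836 to 0.174 CPM per library (3 counts, for counting error only). Ifnl2 was at 0 in all libraries except control CD4 replicate 5, with 0.0295 CPM. Ifng had a log2 fold change of 1.77 ± 1.26 in CD4 cells (edgeR adjusted p = 0.356), of 1.24 ± 0.37 without L-gp130 replicate 1 (edgeR adjusted p = 0.0301) and of 0.80 ± 0.53 in CD8 cells (edgeR adjusted p = 0.313).

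Among 5 receptor genes, 4 were tested, and Ifngr2, a chain of the interferon gamma receptor, fell in both cell types. Ifngr2 had 26.4 to 50.9 CPM in L-gp130 CD4, against 50.4 to 61.7 CPM in control CD4, and 13.3, 14.7 and 17.3 CPM in L-gp130 CD8, against 30.5 to 42.3 CPM in control CD8. Its log2 fold changes were -0.77 ± 0.15 in CD4 cells and -1.24 ± 0.14 in CD8 cells (edgeR adjusted p = 0.00385 and 0.00035). Of the type I receptor chains, Ifnar1 fell by 0.28 ± 0.07 in CD4 cells on the log2 scale and Ifnar2 rose by 0.27 ± 0.06. Ifngr1 was not called.

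Of 5 kinases and STATs, Stat3 rose in both cell types, by 0.63 and 0.73 on the log2 scale, Jak2 rose in CD4 cells by 0.30 and Jak1 fell in CD8 cells by 0.35. Stat2 was not called in either cell type. Of 5 further IRF genes, Irf1 rose in CD8 cells by 0.28 ± 0.07. In CD4 cells Irf1 had 214.3 to 514.6 CPM in L-gp130 libraries, against 190.6 to 214.2 CPM in controls, with the 514.6 CPM in replicate 1. Irf8 had 295.6 CPM in L-gp130 CD4 replicate 1 and 61.2 to 108.7 CPM in the other L-gp130 CD4 libraries, against 105.9 to 139.5 CPM in controls. Irf2, Irf3 and Irf5 overlapped between the CD4 groups. Of 4 inhibitors, Socs1 rose in CD4 cells by 1.03 ± 0.13 and in CD8 cells by 0.50 ± 0.11, Socs3 rose by 1.55 and 1.79, and Pias1 fell in CD8 cells by 0.52. Socs1, which blocks JAK kinases, had 66.6 to 117.5 CPM in L-gp130 CD4, against 33.5 to 40.6 CPM in control CD4.

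Of 17 relatives of these families that were not members, 16 were tested in CD4 cells with all libraries. There Ifi27 rose (0.33) and 0 fell, against 1 lower at an unadjusted p under 0.05 and 0 lower by DESeq2. Over all genes, 7.75% fell and 11.1% rose in CD4 cells, and 10.5% fell and 10.5% rose in CD8 cells. Mx2 had 6.06 CPM in L-gp130 CD4 replicate 1, 1.30 to 3.57 CPM in the other L-gp130 CD4 libraries and 4.59 to 5.87 CPM in control CD4. In the same order Gbp10 had 42.1, 5.40 to 14.3 and 14.1 to 25.45 CPM, and Gbp2b 71.5, 1.615 to 4.10 and 2.54 to 4.62 CPM. In CD8 cells 15 of the relatives were tested and 6 fell: Ifit1bl2 (-1.44), Ifit1bl1 (-0.64), Gbp10 (-0.64), Tgtp1 (-0.54), Tgtp2 (-0.43) and Ifi27 (-0.23). Of 30 further interferon-stimulated genes, 30 were tested in CD4 cells, where Ifitm1 rose by 1.69 and Ifi208, Ifi203, Sp100 and Trim25 fell. In CD8 cells 29 were tested, Ifitm1 rose by 1.30, and Rnf213 (-0.92), Trim30d (-0.63), Ifi208 (-0.61), Herc6 (-0.45), Epsti1 (-0.33) and Ifi203 (-0.32) fell. Ifitm1, which blocks viral entry, had 5.47 to 14.6 CPM in L-gp130 CD4, against 1.59 to 3.16 CPM in control CD4.

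Some markers of other cells were called between the genotypes as well. Over all genes, 7.75% fell and 11.1% rose in CD4 cells, and 10.5% fell and 10.5% rose in CD8 cells. In CD4 libraries 3 of 4 markers of plasmacytoid dendritic cells, which are known as type I interferon producers, fell, and Siglech fell by 2.17 on the log2 scale. Their sum was 56.4 to 104 CPM in L-gp130 libraries, against 109.9 to 145 CPM in controls. There 2 of 5 B cell markers fell, with sums of 199.9 to 519 CPM in L-gp130 libraries, against 203 to 776 CPM in controls. In CD8 libraries 3 of 7 macrophage and monocyte markers fell, and C1qa fell by 2.76 on the log2 scale. Their sums were 266 to 440.4 CPM in L-gp130 libraries, against 360.1 to 755 CPM in controls. In CD8 libraries 2 of 3 NK cell markers fell, Ncr1 by 1.15 and Klre1 by 0.62 on the log2 scale, with sums of 56.1 to 76.9 CPM in L-gp130 libraries, against 64.6 to 108 CPM in controls. Of the plasmacytoid dendritic cell markers 2 of 4 were tested in CD8 libraries and Pacsin1 fell by 0.31, with sums of 57.2 to 70.5 CPM in L-gp130 libraries, against 70.4 to 89.4 CPM in controls. Of 5 conventional dendritic cell markers tested there, 1 was called: Itgax rose by 1.16 ± 0.15. The sums, which include Itgax, did not overlap, with 56.9 to 105 CPM in L-gp130 libraries, against 36.4 to 46.8 CPM in controls. The part of Itgax in these sums was not tested. Erythroid markers were not called in either cell type, with sums of 4239 to 22824 CPM in L-gp130 CD4, against 2818 to 15698 CPM in control CD4, and 24 to 65 CPM in L-gp130 CD8, against 24 to 397 CPM in control CD8. The T cell markers themselves were lower in the CD8 comparison, where 4 of 6 fell (Cd3d, Cd3g, Cd8a and Cd8b1) and the sums were 2321 to 2580 CPM in L-gp130 libraries, against 2875 to 3582 CPM in controls. No listed marker was at 0 in every library. The part of these cells in the values of the interferon-stimulated genes was not tested.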

How the data were processed

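The authors deposited, per the file headers, a table of estimated counts per gene for each cell type, and for each library Salmon's estimated counts and TPM per transcript. Per the submitters' processing notes, the tools were cutadapt 3.4, Trimmomatic 0.39, Salmon 1.5.2 and edgeR 3.34.1 with build GRCm38, without role or order. The sources used here do not give the annotation release. Names and positions came from GENCODE M21. Transcripts without a match (694 of 137641) held 0.144% to 0.209% of reads.

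Estimated gene counts were rounded and fitted per cell type in R 4.3.3 by edgeR 4.0.16, after filterByExpr and TMM, with genotype and the labelled sex as terms. The test was the robust 2-sided quasi-likelihood test, with p-values adjusted by Benjamini-Hochberg over all genes and a threshold of 0.05. SE was obtained by dividing the absolute log2 fold change by the square root of F. The cell type by genotype term and the control comparison used Salmon reads summed per gene over 21 libraries, because the gene tables were scaled apart. The deposited TPM values were summed per gene to compare levels. Scripts were tested on simulated data. Shared sequence was measured as 31-base words of each gene's transcripts found in other genes.

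Members and lists were chosen with earlier results of these data known. Named genes are Isg15, Irf7, Irf9, Usp18, the up to 3 smallest adjusted p per family and cell type, and members called for the cell type by genotype term. Gbp2 and Gbp5 were chosen after their values were seen. 1 further gene of this rule and of the pathway lists, and 1 marker gene, are not reported here. The lowest chi-square per gene between libraries of a group was 9.48, so none was counted as a copy. Alternatives were RLE size factors, DESeq2 1.42.0, other filters, no sex covariate, Salmon reads, a replicate block, 1 sex alone and left-out libraries.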

Additional observations from a re-analysis of the deposited data

Results flagged for a closer look

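In groups of 6 libraries, 66 combinations of 1 of the 22 named genes and a group were examined. Members that are not named genes were not examined. The search was for a library set far from its neighbours relative to the range of its group, and 7 were found. Chance gives about 1 in 20 groups for genes chosen without regard to their values. The named genes were chosen by their test results, and Gbp2 and Gbp5 after their values were seen. L-gp130 CD4 replicate 1 was the far library for Gbp2 (545.4 CPM), Gbp5 (226.1 CPM), Gbp3 (161.7 CPM), Gbp6 (268 CPM) and Usp18 (25.67 CPM). L-gp130 CD4 replicate 6 was the far library for Rsad2 (252.5 CPM), and control CD4 replicate 1 for Gbp3 (36.58 CPM). The cause was not tested.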

How the results depend on the processing

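Against 9 members called in CD4 cells (9 lower, 0 higher), the number was 24 (21 lower, 3 higher) with the labelled females alone. There 18.5% of all genes were called. That fit held 2 L-gp130 and 5 control libraries, so it also left out L-gp130 CD4 replicate 1. When control CD4 replicate 5 was left out as well, 21 were called (18 lower, 3 higher), and 15.6% of all genes. This alternative was chosen after seeing the data. Without both doubted libraries (L-gp130 CD4 replicate 1 and control CD4 replicate 5), 16 were called, of which 3 were higher (22.2% of all genes). DESeq2 called 1 higher and a fit with no sex covariate 3 higher, where 13.9% and 15.8% of all genes were higher. Leaving out 1 library at a time gave 5 to 17 called, 5 to 14 lower and 0 to 3 higher, while the share of all genes called ran from 9.12% to 23.6%. Against 19 called in CD8 cells (18 lower, 1 higher), 30 were called with control replicates 1 to 3 left out (29 lower). There 26.8% of all genes were called. With control replicates 4 to 6 left out 2 were higher, where 10% of all genes were. Leaving out 1 library at a time gave 14 to 20 called in CD8 cells, 13 to 19 lower and 1 higher in each, with 9.44% to 21% of all genes called. The cell type by genotype term called 2 without both doubted libraries (5.67% of all genes) and 0 to 2 without 1 library (1.46% to 6.25%), and the control comparison called 13, and 11 to 21 without 1 library (46.9% to 54.4%). The cause of these shifts was not tested.

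Within each cell type, the deviations of same-numbered L-gp130 and control libraries had correlations of -0.205 to 0.178. Whether a CD4 and a CD8 library came from the same mouse was not tested by these correlations. In L-gp130 mice, replicate 2 was labelled female in CD4 and male in CD8, and replicate 3 male in CD4 and female in CD8. These numbers therefore did not mark the same mouse in both cell types. The remaining L-gp130 number was labelled male in both. With the replicate block, 5 members were lower and 3 higher in CD4 cells, 2 were higher in CD8 cells, 0 were called for the cell type by genotype term and 11 for the control comparison, where 5.61% of all genes were lower and 9.54% higher in CD4 cells, 8.99% higher in CD8 cells, and 1.7% and 46.9% were called.

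Of 484 values for named genes in CD4 cells under alternatives, 424 kept direction and side of the threshold, 17 were no longer called, 40 were newly called and 3 changed sign. Of 418 in CD8 cells, 396, 16, 3 and 3 did. Gbp6 in CD4 cells had 0.042 with no sex covariate, 0.11 with the replicate block, and -0.515 to 0.041 without 1 library. Gbp2 in CD8 cells had -0.022 with males alone, -0.053 with control replicates 1 to 3 left out, and -0.019 to 0.12 without 1 library. The CD4 calls of Ifit2, Slfn5, Slfn8, Ddx58 and Samd9l held under each alternative run for them.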
